A study of Mus musculus with 18 samples.

Results

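The genes studied here were 4 of the 50600 Ensembl genes in the deposited count table, Gpr183, Ch25h, Cyp7b1 and Hsd3b7. Together they encode the oxysterol receptor EBI2 and the enzymes that make and remove its ligand. They were found by their mouse symbols, and all 4 were in the table. The set was chosen by expression values, because Gpr183 was among the genes that differed most between defactinib-treated WT cells and IRF5 KO cells, both after LPS, so the values of that contrast are given as a description and were not tested. Bone marrow-derived macrophages (BMDMs) were grown with GM-CSF, which gives macrophage-like cells that share features with dendritic cells, over 8 days from WT mice and from mice lacking IRF5, a transcription factor that acts downstream of Toll-like receptors. Each genotype had 3 groups of 3 libraries: unstimulated, DMSO for 1 h followed by 100 ng/ml LPS for 2 h (LPS DMSO), and 3.5 µM defactinib for 1 h followed by the same LPS (LPS defactinib). Defactinib inhibits the kinases FAK and PYK2. The labels give DMSO for the unstimulated cells, whereas the column headers mark them as untreated. The methods name male C57BL/6J mice aged 8 to 11 weeks as purchased animals, and do not give the age or sex of the marrow donors, how the IRF5 allele was made, or which replicates came from separate animals (the study calls them biological replicates), so p-values measure the spread between these libraries.

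Oxysterols are oxidised forms of cholesterol. Ch25h encodes cholesterol 25-hydroxylase, an enzyme that macrophages induce on Toll-like receptor and interferon signalling, and whose product is 25-hydroxycholesterol. The product of Cyp7b1 adds a further hydroxyl group to give the EBI2 ligand, and the product of Hsd3b7 converts that ligand into an intermediate of bile acid synthesis that no longer activates the receptor. Gpr183 encodes EBI2, a G protein-coupled receptor that guides B cells, dendritic cells and other immune cells along gradients of this ligand in lymphoid tissue and gut. 25-hydroxycholesterol also acts inside cells, where it restrains the SREBP2 programme of cholesterol synthesis and activates the nuclear receptor LXR. Transcripts were measured here, not oxysterols or proteins.

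Libraries held 39282181 to 61949143 counted read pairs, and levels are given as CPM, counts scaled to library size after TMM normalisation. All 8 macrophage markers were detected, with a summed level of 9740 to 19152 CPM. The 9 dendritic cell markers summed to 1979 to 2963 CPM. Most of this was Itgax, a marker of dendritic cells and macrophages, at 1809 to 2875 CPM. The others were lower, with Ccr7 at 8.78 to 368 CPM, Zbtb46 at 19.99 to 97.2 CPM and Dpp4 at most at 58.8 CPM. Clec9a was at most at 10.9 CPM, Cd209a at 8.83 CPM, Flt3 at 2.72 CPM, Xcr1 at 0.371 CPM and Siglech at 0.168 CPM. The part of the dendritic cell markers in the member levels was not tested. B cell markers summed to at most 0.945 CPM in any library and T and NK cell markers to at most 7.003 CPM, eosinophil markers to 19.2 to 65.8 CPM and neutrophil markers to 30.8 to 108 CPM. Irf5 itself had 614 ± 32.5 CPM (n = 3, SD) in unstimulated WT and 365 ± 30.8 CPM (n = 3, SD) in unstimulated IRF5 KO cells, a log2 difference of 0.75 (adjusted p = 0.00492, edgeR) less than the fold threshold. The difference was 0.16 after LPS with DMSO (adjusted p = 0.428) and -0.42 after LPS with defactinib (adjusted p = 0.0545), with 276 ± 90.2 CPM (n = 3, SD) in WT and 369 ± 20.2 CPM (n = 3, SD) in IRF5 KO. Irf5 counts therefore separated the genotypes only before LPS, and counts over a whole gene do not show a deleted exon. Of the 3 libraries labelled IRF5 KO LPS DMSO, replicates 1 and 2 resembled each other and replicate 3 stood apart. A chi-square of the counts was 441 and 425 per gene between replicate 3 and replicates 1 and 2, 2.33 between replicates 1 and 2, and 3.82 to 183 within the other groups. Over 15663 genes replicates 1 and 2 were most like the mean of IRF5 KO LPS defactinib (r = 0.99 each, against 0.93 for unstimulated IRF5 KO), and replicate 3 was most like unstimulated IRF5 KO (0.98, against 0.94 for IRF5 KO LPS defactinib). The labels give all 3 the same treatment, and these data do not show which of them match it, so IRF5 KO LPS DMSO means the libraries so labelled throughout. Member results that rest on this group are given without replicate 3 where it changed them, and without replicates 1 and 2 in a paragraph of their own. Gm26917, a long noncoding RNA listed here with the nuclear RNAs Malat1 and Neat1 as a sign of RNA makeup, ran from 47.0 to 41939 CPM. Malat1 was at most at 985 CPM and Neat1 at most at 649 CPM, and whether Gm26917 is itself retained in the nucleus was not tested. The sum of these RNAs, nearly all of it Gm26917 where it was high, was 350 to 1058 CPM in the unstimulated groups, WT LPS DMSO and IRF5 KO LPS DMSO replicate 3, and 11783 to 42905 CPM in the defactinib groups and IRF5 KO LPS DMSO replicates 1 and 2. Its part in the member levels was not tested. In bulk RNA a smaller share of cells expressing a gene and a lower level per cell cannot be told apart.

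The stretches just upstream of the start sites of Ch25h and Gpr183 are shown because these members had the widest ranges of level over the libraries. Start-site windows of 300 bases, 250 before and 50 after the RefSeq start in GRCm38.p6, were available for 3 of the 4 members and are matched by symbol. The windows were searched on both strands for the interferon response element core GAAANNGAA, the kB site GGGANTTCC, the AP-1 site TGANTCA, the cAMP response element TGACGTCA and the EGR site GCGTGGGCG. The only match was a cAMP response element in the Ch25h window, from 61 to 54 bases before the start, in capitals below. These letters occurred in 1.79% of the 32851 mouse windows of this length. For the other motifs the share of windows was 8.56% for the interferon response element core, 1.68% for the kB site, 7.81% for the AP-1 site and 0.612% for the EGR site. The Ch25h stretch lies at chr19:34475149-34475398 and the Gpr183 stretch at chr14:121965194-121965443, both on the minus strand and both printed 5′ to 3′.
Ch25h: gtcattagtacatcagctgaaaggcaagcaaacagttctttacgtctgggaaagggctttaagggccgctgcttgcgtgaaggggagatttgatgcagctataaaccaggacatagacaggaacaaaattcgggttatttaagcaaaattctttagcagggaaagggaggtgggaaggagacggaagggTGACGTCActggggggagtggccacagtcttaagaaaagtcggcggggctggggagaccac
Gpr183: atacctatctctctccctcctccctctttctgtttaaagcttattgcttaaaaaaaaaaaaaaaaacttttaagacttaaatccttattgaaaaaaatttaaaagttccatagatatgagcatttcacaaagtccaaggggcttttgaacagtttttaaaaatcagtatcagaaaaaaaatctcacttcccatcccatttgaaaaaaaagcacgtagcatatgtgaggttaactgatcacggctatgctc
The windows differed in base composition, with 51.0% G and C for Ch25h, 35.3% for Gpr183 and 57.7% for Hsd3b7.

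Gpr183 (ENSMUSG00000051212, chr14:121952331-121965193 of mm10, minus strand, 2942 bases of exon) lay higher in every IRF5 KO library than in any WT library, and lowest in WT cells given defactinib. Unstimulated WT libraries were at 16.9, 17.2 and 12.5 CPM, and WT LPS DMSO libraries at 10.9, 15.3 and 13.6 CPM. The WT LPS defactinib libraries were at 1.05, 0.577 and 1.05 CPM, from 45, 24 and 41 counts, below every other library of the series. Unstimulated IRF5 KO libraries were at 35.7, 39.4 and 36.6 CPM and those given LPS with defactinib at 44.1, 42.6 and 41.1 CPM. In the IRF5 KO LPS DMSO group replicates 1 and 2 were at 24.1 and 24.6 CPM and replicate 3 at 67.8 CPM, so this group held both the lowest and the highest IRF5 KO libraries. Ordered by mean, the 3 IRF5 KO groups came first (LPS defactinib, LPS DMSO, unstimulated), where the middle group overlapped both others but these did not overlap each other. Unstimulated WT and WT LPS DMSO followed and overlapped, and WT LPS defactinib was last and apart.

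**Figure D1:**
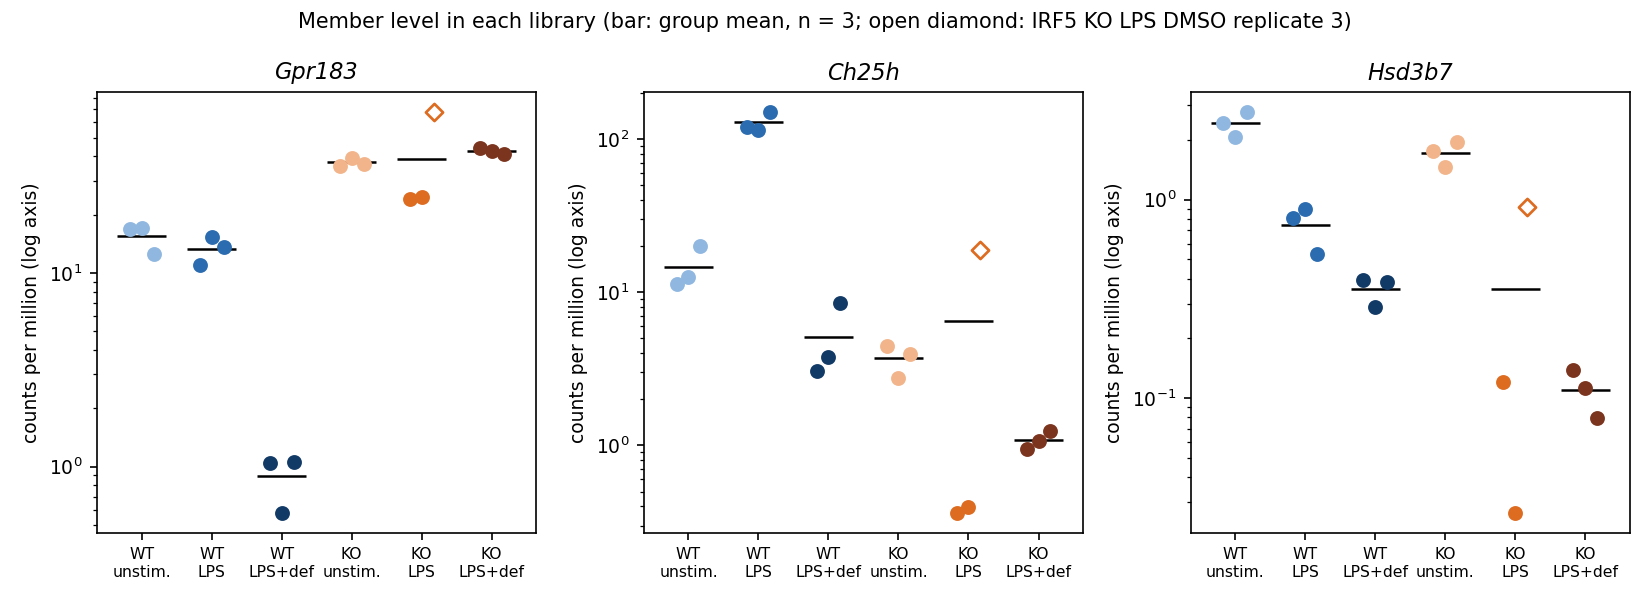
Level of Gpr183, Ch25h and Hsd3b7 in each of the 18 libraries, in CPM on log axes that differ between panels, by group, where WT and KO are the genotypes and def is defactinib. Points are libraries, bars are group means (n = 3) and the open diamond is IRF5 KO LPS DMSO replicate 3. Gpr183 is at or below 1.05 CPM in WT LPS defactinib and at or above 24.1 CPM in every IRF5 KO library, while Ch25h is highest in WT LPS DMSO, at 115 to 150 CPM.

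The choice named treated WT and knockout cells, read here as the WT LPS defactinib group set against the IRF5 KO cells given LPS and DMSO, and Gpr183 was tested only in comparisons that held no library of that contrast. If the defactinib-treated IRF5 KO cells were meant, the test of LPS with defactinib in IRF5 KO cells would hold libraries used in the choice. Before LPS it was lower in WT, at 15.5 ± 2.60 CPM (n = 3, SD) against 37.2 ± 1.93 CPM (n = 3, SD) for IRF5 KO, that is, by -1.26 as log2 fold change (standard error, SE, 0.31, adjusted p = 0.0116, edgeR). Of all tested genes 7.31% were called in this comparison. The call was lost without WT unstimulated replicate 3 (log2 fold change -1.13, adjusted p = 0.0661) and when the 2-fold threshold was placed inside the test (adjusted p = 1), and over all alternatives the adjusted p was 4.71e-06 to 1. LPS alone gave a log2 fold change of -0.23 in WT cells (SE 0.31, adjusted p = 0.603), and LPS with defactinib gave 0.19 in IRF5 KO cells against unstimulated (SE 0.31, adjusted p = 0.616), neither of them called.

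The remaining contrasts of Gpr183 are given as values without a test. In LPS-stimulated WT cells the mean was 13.3 ± 2.22 CPM (n = 3, SD) with DMSO and 0.892 ± 0.273 CPM (n = 3, SD) with defactinib, a log2 fold change of -3.89, or 14.9-fold. Against unstimulated WT cells LPS with defactinib gave -4.12. In LPS-stimulated IRF5 KO cells the log2 fold change with defactinib was 0.13, and 0.81 without IRF5 KO LPS DMSO replicate 3. For LPS alone in IRF5 KO cells it was 0.06, and -0.61 without that library, so the sign of this value rested on it. WT against IRF5 KO gave -1.55 after LPS with DMSO, -0.87 without the same library, and -5.57 after LPS with defactinib. In the contrast that chose the gene, which sets WT LPS defactinib against the IRF5 KO cells given LPS and DMSO, where 15.6% of tested genes were called, the value was -5.44, and -4.77 without that library. As the basis of the choice, and not as support, its log2 fold change stood at rank 29 from the lowest of all tested genes there, and at rank 3 among the 671 genes past the thresholds that were lower in the defactinib-treated WT cells, had separate groups and averaged at least 3 on the log2 CPM scale, after Gata2 (-5.79) and before Il6 (-4.60). Gata2, a progenitor and mast cell gene, was at 0.313 to 4.32 CPM in WT and 25.9 to 51.5 CPM in IRF5 KO libraries. Kit, another such gene, was at 6.29 to 10.4 CPM in WT and 10.1 to 20.8 CPM in IRF5 KO libraries, so that it overlapped. The summed level of 7 mast cell and basophil markers was 8.06 to 15.7 CPM in WT and 43.2 to 73.2 CPM in IRF5 KO libraries, most of it Gata2 in the latter, and its part in the Gpr183 levels was not tested. The defining markers Cpa3, Mcpt8, Prss34, Ms4a2 and Fcer1a were at most at 1.07 CPM in any library.

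Ch25h (ENSMUSG00000050370, chr19:34473786-34475135 of mm10, minus strand, 1 exon of 1350 bases) rose with LPS in WT cells, while its levels after LPS were low with defactinib and in IRF5 KO replicates 1 and 2. Unstimulated WT libraries were at 11.2, 12.6 and 19.9 CPM. WT LPS DMSO libraries reached 120, 115 and 150 CPM, from 4486 to 5889 counts, and lay above all others. WT LPS defactinib libraries were at 3.07, 3.75 and 8.48 CPM, lower than each unstimulated WT library. Unstimulated IRF5 KO libraries were at 4.46, 2.77 and 3.95 CPM and those given LPS with defactinib at 0.941, 1.08 and 1.25 CPM. In IRF5 KO LPS DMSO replicates 1 and 2 were at 0.364 and 0.398 CPM, from 15 counts each, and replicate 3 at 18.7 CPM, from 957 counts, so the first pair was the lowest of the series and the third library was in the range of unstimulated WT.

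In WT cells LPS raised Ch25h from 14.6 ± 4.64 to 128 ± 18.8 CPM (n = 3 each, SD), a log2 fold change of 3.14 (SE 0.94, adjusted p = 0.0140, edgeR), and 11.6% of tested genes were called higher and 21.3% in either direction. The call was lost without the expression filter (adjusted p = 0.0514), with the fold threshold inside the test (0.0811), and without WT unstimulated replicate 1 (0.0582) or 2 (0.0561), and the lowest adjusted p of all alternatives was 1.38e-06, while DESeq2 gave none. The summed eosinophil markers, all 5 of them tested and mostly Prg2 and Epx, moved alongside, from 25.05 to 29.03 CPM unstimulated to 55.7 to 65.8 CPM with LPS and 24.999 to 38.6 CPM with defactinib in WT. The 7 T and NK cell markers, mostly Lck and Cd8a, went from 0.693 to 0.812 CPM to 5.24 to 7.003 CPM and 0.848 to 2.09 CPM, while Cd3d, Cd3e and Cd3g were at most at 0.186 CPM in any library. The summed neutrophil markers went from 30.8 to 41.9 CPM to 55.7 to 108 CPM with LPS and were at 52.8 to 81.6 CPM with defactinib, and the mast cell and basophil markers from 10.2 to 11.3 CPM to 13.6 to 15.7 CPM and 8.06 to 11.2 CPM. The part of these lists in the Ch25h levels was not tested. Defactinib lowered Ch25h in LPS-stimulated WT cells to 5.10 ± 2.95 CPM (n = 3, SD), a log2 fold change of -4.65 (SE 1.02, adjusted p = 0.00133, edgeR), where 18.6% of tested genes were called lower, 10.4% higher and 29.1% in either direction, and this call was kept in all alternatives, with adjusted p of 3.89e-08 to 0.00865, except that DESeq2 gave none. After LPS with DMSO, WT exceeded IRF5 KO for Ch25h by 4.28 (SE 1.00, adjusted p = 0.00251, edgeR), and by 8.39 without IRF5 KO LPS DMSO replicate 3 (adjusted p = 1.33e-08). The background of this comparison was 25.8% of genes called, and 34.5% without that library. When the fit held these 2 groups alone, the difference of 4.23 was not called (adjusted p = 0.0725).

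Leaving out IRF5 KO LPS DMSO replicate 3 changed the fold of Ch25h wherever that group was compared, and changed calls elsewhere, where folds hardly moved and the groups shared only the estimate of the spread. The shares of all genes called rose as well. In IRF5 KO cells they went from 13.3% to 26.2% for LPS and from 0.919% to 1.45% for defactinib. For WT against IRF5 KO they went from 7.31% to 8.58% unstimulated and from 17.3% to 20.3% after LPS with defactinib. For LPS with defactinib they went from 24.9% to 26.3% in WT and from 24% to 25.3% in IRF5 KO cells. The interaction with LPS went from 9.83% to 23.6% and that with defactinib from 22.8% to 31.6%. In IRF5 KO cells LPS gave Ch25h a log2 fold change of 0.82 (adjusted p = 0.493, edgeR), and -3.29 without replicate 3 (adjusted p = 0.000181), so the sign turned. Defactinib in LPS-stimulated IRF5 KO cells gave -2.61 (adjusted p = 0.142), and 1.49 without that library (adjusted p = 0.182). Before LPS Ch25h was higher in WT than in IRF5 KO, with a log2 difference of 1.96 that was not called (adjusted p = 0.191), and was called without replicate 3 of IRF5 KO LPS DMSO (adjusted p = 0.000494). After LPS with defactinib WT was higher by 2.23 (adjusted p = 0.0996), not called, and again called without that library (adjusted p = 0.000305). LPS with defactinib against unstimulated gave -1.52 in WT (adjusted p = 0.174) and -1.79 in IRF5 KO cells (adjusted p = 0.148), which were called at -1.52 (adjusted p = 0.000945) and -1.80 (adjusted p = 0.00119) without it. The interaction of genotype with LPS was 2.32 (adjusted p = 0.216), and 6.43 without that library (adjusted p = 1.78e-06). The interaction of genotype with defactinib was -2.05 (adjusted p = 0.254), and -6.15 without it (adjusted p = 4.08e-06). In the contrast that chose the set the value of Ch25h was -0.37, and 3.73 without it, with overlapping groups and no test.

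**Figure D2:**
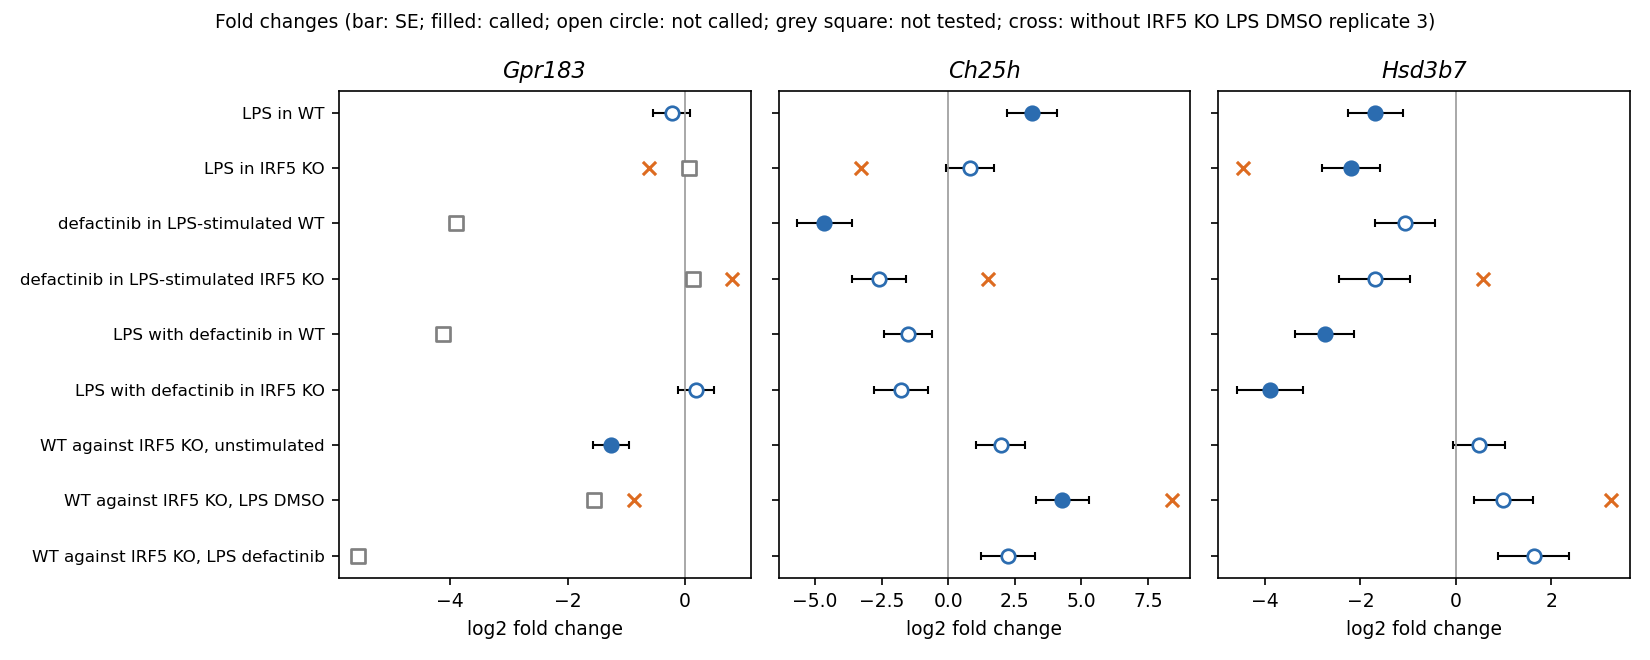
Log2 fold changes of Gpr183, Ch25h and Hsd3b7 in 9 comparisons, on horizontal axes that differ between panels. Bars are standard errors, filled circles were called, open circles were not, squares were not tested, and crosses give the value without IRF5 KO LPS DMSO replicate 3 where the comparison uses that group. The cross for Ch25h lies on the other side of 0 for LPS in IRF5 KO (0.82 and -3.29) and for defactinib in IRF5 KO (-2.61 and 1.49).

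Hsd3b7 (ENSMUSG00000042289, chr7:127800604-127803802 of mm10, plus strand, 2769 bases of exon) was counted at 1 to 134 read pairs per library and fell with LPS in both genotypes. Unstimulated WT libraries were at 2.43, 2.06 and 2.76 CPM and unstimulated IRF5 KO libraries at 1.76, 1.46 and 1.95 CPM. WT LPS DMSO libraries were at 0.812, 0.895 and 0.534 CPM and WT LPS defactinib libraries at 0.395, 0.289 and 0.385 CPM. IRF5 KO LPS DMSO libraries were at 0.121, 0.0265 and 0.920 CPM, with replicate 3 again highest, and IRF5 KO LPS defactinib libraries at 0.139, 0.112 and 0.0797 CPM. The IRF5 KO LPS libraries other than that replicate held 1 to 8 counts each, so their levels are known only roughly.

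LPS lowered Hsd3b7 in WT cells by a log2 fold change of -1.69 (SE 0.58, adjusted p = 0.0275, edgeR), a direction in which 9.71% of tested genes were called. The call was lost on leaving out WT unstimulated replicate 1 or 3 or any of the 3 WT LPS DMSO libraries, with adjusted p of 0.0539 to 0.0996, and with the fold threshold inside the test (0.281), while the lowest adjusted p of all alternatives was 1.89e-05. In IRF5 KO cells the fold change was -2.20 (SE 0.61, adjusted p = 0.0133), in a comparison with 13.3% of genes called in either direction. It was -4.46 without IRF5 KO LPS DMSO replicate 3 (adjusted p = 1.69e-07) and -1.78 without replicate 1, where the call was lost (adjusted p = 0.0617). It was also lost when the fit held only the groups compared (0.165) and with the fold threshold inside the test (0.229). LPS with defactinib against unstimulated gave a fall, with a log2 fold change of -2.75 in WT (SE 0.62, adjusted p = 0.00194) and -3.90 in IRF5 KO cells (SE 0.70, adjusted p = 0.000425), in comparisons with 24.9% and 24% of genes called in either direction. Defactinib after LPS gave -1.06 in WT (adjusted p = 0.160) and was called without IRF5 KO LPS DMSO replicate 3 (adjusted p = 0.00594). In IRF5 KO cells it gave -1.70 (adjusted p = 0.180), and 0.57 without that library (adjusted p = 0.632). The genotypes differed by 0.49 before LPS (adjusted p = 0.666), by 1.00 after LPS with DMSO (adjusted p = 0.190) and by 1.63 after LPS with defactinib (adjusted p = 0.101), none of them called, while without that library the last 2 became 3.26 (adjusted p = 1.07e-05) and 1.62 (adjusted p = 0.00252), both called. The interaction of genotype with LPS was 0.51 (adjusted p = 0.692), and 2.77 without it (adjusted p = 0.000486). The interaction with defactinib was 0.64 (adjusted p = 0.634), and -1.63 without it (adjusted p = 0.0471). In the contrast that chose the set Hsd3b7 was at -0.07, and at 2.19 without that library. The shares of all genes called without that library are those given for Ch25h. For defactinib after LPS in WT the share was 29.1% with it and 30.7% without it.

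Leaving out IRF5 KO LPS DMSO replicates 1 and 2 instead, an alternative added after seeing the data, gave another picture of the IRF5 KO cells. It leaves 1 library in that group, which is assumed to vary like the others. The shares of all genes called moved with it, from 13.3% to 2.71% for LPS and from 0.919% to 19.2% for defactinib in IRF5 KO cells, and from 25.8% to 16% for WT against IRF5 KO after LPS with DMSO. Ch25h then rose with LPS in IRF5 KO cells, by 2.34 (adjusted p = 0.00553, edgeR), and fell with defactinib, by -4.14 (adjusted p = 1.68e-05), the directions seen in WT. WT still exceeded IRF5 KO for Ch25h after LPS with DMSO, by 2.76 (adjusted p = 0.00143), while the interactions of genotype with LPS (0.79, adjusted p = 0.447) and with defactinib (-0.50, adjusted p = 0.596) were not called. Hsd3b7 was not called for LPS in IRF5 KO cells (-0.89, adjusted p = 0.184), fell with defactinib there (-3.004, adjusted p = 1.69e-05), and had a called interaction with defactinib of 1.96 (adjusted p = 0.00609). For Gpr183 the untested values became 0.88 for LPS and -0.69 for defactinib in IRF5 KO cells, and -2.37 for WT against IRF5 KO after LPS with DMSO. The response of Ch25h to LPS and to defactinib in IRF5 KO cells thus had opposite signs under these 2 readings of the group, and neither reading was tested against the other.

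Cyp7b1 (ENSMUSG00000039519, chr3:18071950-18243338 of mm10, minus strand) had a single count, in WT LPS DMSO replicate 1, and 0 counts in the other 17 libraries. It did not pass the filter on low counts, and was the only member not tested. A count of 0 allows up to 3 counts per library, and in the 5 groups without a count this is a mean of 0.0545 to 0.0730 CPM, for counting error only. Apart from that count, transcripts of the enzyme that turns 25-hydroxycholesterol into the EBI2 ligand were not detected at this depth.

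By comparison, edgeR called 2 of 3 tested members with LPS in WT (21.3% of all tested genes called), 1 of 2 with LPS in IRF5 KO cells (13.3%), 1 of 3 between the unstimulated genotypes (7.31%), 1 of 2 between the genotypes after LPS (25.8%) and 1 of 2 with defactinib in WT (29.1%). It called 1 of 2 for LPS with defactinib in WT (24.9%) and 1 of 3 in IRF5 KO cells (24%). With so few members these counts say little beside the background. None of 2 was called between the genotypes after LPS with defactinib, where 17.3% of genes were called. None of 2 was called with defactinib in IRF5 KO cells (0.919% of genes called) or in the interactions of genotype with LPS (9.83%) or with defactinib (22.8%). At an unadjusted p below 0.05 these counts of 0 became 2, 2, 0 and 0, limma-voom called 0, 0, 1 and 1, and DESeq2, which gave Ch25h no adjusted p in any comparison, called 1, 0, 0 and 0.

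Set against each other per kb of exon, Ch25h was above Gpr183 in every WT library and below it in every IRF5 KO library. The ratio of Ch25h to Gpr183, both in CPM per kb, was 1.45, 1.604 and 3.46 in unstimulated WT and 23.9, 16.3 and 23.99 in WT LPS DMSO. In WT LPS defactinib, where both genes were lower, it was 6.39, 14.2 and 17.5. In unstimulated IRF5 KO it was 0.272, 0.153 and 0.236, and with LPS and defactinib 0.0466, 0.0550 and 0.0662. For IRF5 KO LPS DMSO it was 0.0329 and 0.0352 in replicates 1 and 2 and 0.602 in replicate 3. As Gpr183 was chosen for its difference between WT and IRF5 KO cells, this split is a description. With its full exon length Hsd3b7 was at 0.874 ± 0.126 CPM per kb (n = 3, SD) in unstimulated WT, below Ch25h and Gpr183 in that group. This value could be too low, as 1717 of its exon bases are shared with another gene on the same strand, where read pairs could be left uncounted.

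**Figure D3:**
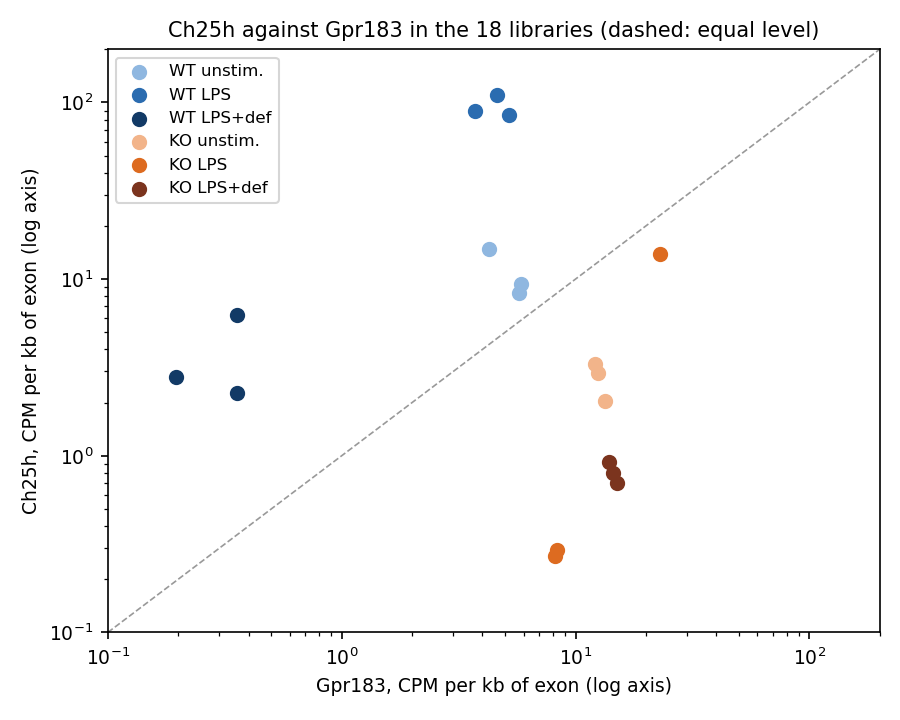
Ch25h against Gpr183 in the 18 libraries, both in CPM per kb of exon on log axes, coloured by group. The dashed line marks equal levels: the 9 WT libraries lie above it and the 9 IRF5 KO libraries below it, with ratios up to 23.99 in WT LPS DMSO and down to 0.0329 in IRF5 KO LPS DMSO.

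The genes that overlap or lie next to the members were read for signs of shared reads. Gm26902, annotated on the opposite strand of Ch25h from chr19:34474808-34481546 and sharing 159 exon bases with it, moved with Ch25h in WT cells. It was at 1.46 ± 0.179 CPM (n = 3, SD) in unstimulated WT, 3.87 ± 0.337 CPM (n = 3, SD) in WT LPS DMSO and 1.31 ± 0.517 CPM (n = 3, SD) in WT LPS defactinib. Its log2 fold change was 1.40 with LPS (adjusted p = 0.0234, edgeR) and -1.56 with defactinib (adjusted p = 0.0106), and after LPS with DMSO WT exceeded IRF5 KO by 3.69 (adjusted p = 5.17e-05), by 5.05 without IRF5 KO LPS DMSO replicate 3 and by 2.60 without replicates 1 and 2. The call for LPS was lost without WT unstimulated replicate 1 or 2 or WT LPS DMSO replicate 1 or 3, with adjusted p of 0.0581 to 0.0784. Counting used strand, and read pairs that overlapped more than 1 gene on their strand were left uncounted. Gpr183 lies within the span of Ubac2 (chr14:121878606-122021034) on the opposite strand, with 0 shared exon bases, and Ubac2 moved the other way with defactinib in WT, by 0.92 (adjusted p = 9.44e-05), below the fold threshold. Gpr18, another immune receptor gene and the nearest counted gene on the side of lower coordinates of Gpr183 at 36557 bases, was at 0.711 ± 0.198 CPM (n = 3, SD) in WT LPS DMSO and 0.221 ± 0.0735 CPM (n = 3, SD) in WT LPS defactinib, a log2 fold change of -1.68 (adjusted p = 0.0178) whose call was lost on leaving out replicate 1 of WT LPS DMSO (0.0583) or of WT LPS defactinib (0.0748). Hsd3b7 shares 1717 exon bases with Gm49388 on the same strand, which had 3 counts in all, so that read pairs from the shared stretch could be left uncounted and its level understated, and 1729 with 9430064I24Rik on the opposite strand, which had 28 counts in all.

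Likeness to the members was measured by Pearson r of log2 CPM over the 18 libraries, which share library effects, among the 8458 or 8459 other genes that averaged at least 3 on that scale. The pattern of Gpr183 was closest to Wdr82 (r = 0.97), Ckap5 (0.97) and Brix1 (0.97). Wdr82 was at a mean of 60.7 CPM in WT LPS DMSO, 27.2 CPM in WT LPS defactinib and 99.4 CPM in IRF5 KO LPS defactinib, a narrower range than that of Gpr183. Ch25h was closest to Smap1 (0.99), Arl8a (0.98) and Samd9l (0.98), an interferon-induced gene whose mean went from 101 CPM in unstimulated WT to 657 CPM in WT LPS DMSO and 57.0 CPM in WT LPS defactinib. Hsd3b7 was closest to Strn, Gna15 and Acvr1b (0.98 each), which encode a calmodulin-binding scaffold, a G protein subunit and an activin receptor. With library size alone as scaling, Smap1 ranked 482 for Ch25h and Ckap5 ranked 96 for Gpr183, so these orders depend on the scaling.

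The other genes of the pathway are given as counts called, to be read against the shares of all tested genes: 11.6% higher and 9.71% lower with LPS in WT, and 10.4% higher and 18.6% lower with defactinib in LPS-stimulated WT. Library size alone as scaling moved the median of all tested genes from -0.00 to -0.38 for LPS in WT and from 0.09 to 0.29 for defactinib in LPS-stimulated WT. The sum of Gm26917, Malat1 and Neat1 was 684 to 1058 CPM in WT LPS DMSO and 23135 to 42905 CPM in WT LPS defactinib, and its part in the list changes with defactinib was not tested. Of 13 tested genes of synthesis and clearance, 1 was called higher and none lower with LPS in WT. For 2 of the 13, Cyp7a1 and Baat, no count was found in either group, and the median of the other 11 was -0.03. At an unadjusted p below 0.05 there were 3, and limma-voom and DESeq2 each called 1. The called gene was Cyp11a1, the side-chain cleavage enzyme of steroid synthesis, at 1.17 (adjusted p = 0.0242), from 62 counts in 3 unstimulated and 107 in 3 LPS libraries. It was not called without WT unstimulated replicate 1 or 2 or WT LPS DMSO replicate 3 (adjusted p = 0.0974 to 0.112). The most abundant per kb were Soat1, which esterifies cholesterol, at 399 ± 11.6 CPM (n = 3, SD) in unstimulated WT and 201 ± 20.5 CPM (n = 3, SD) after LPS, and Scp2, a sterol carrier protein. With defactinib in LPS-stimulated WT cells 1 gene was called higher and 1 lower. The lower gene was Cyp11a1, at -1.55 (adjusted p = 0.00452). The higher gene was Cyp7a1, the rate-limiting enzyme of bile acid synthesis in liver, which passed the filter on low counts only through the groups where it was counted, so its call is no support. It had 0 counts in all unstimulated and WT LPS DMSO libraries and 27, 8 and 3 counts in WT LPS defactinib. Cyp7a1 had 29, 25 and 0 counts in IRF5 KO LPS DMSO replicates 1, 2 and 3 and 25, 27 and 16 in IRF5 KO LPS defactinib, so its counts were found in the libraries with high Gm26917, where its sum with Malat1 and Neat1 was at least 11783 CPM. Its call was lost without any 1 of the WT LPS DMSO libraries, or without replicate 1 of WT LPS defactinib (adjusted p = 0.0541 to 0.0836).

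Among 17 tested genes that bind or sense oxysterols, LPS in WT raised 1, Osbpl3, an oxysterol-binding protein, from 34.03 ± 0.915 to 70.6 ± 2.16 CPM (n = 3 each, SD), a log2 fold change of 1.05 (adjusted p = 3.02e-05) that fell to 0.67 with library size alone. Defactinib in LPS-stimulated WT raised 2 and lowered 3, with a median of -0.16 against 0.09 for all genes, and a median of 0.04 with library size alone, so that the count of 5 in 17 was near the background of 29.1%. The largest falls were Osbpl11, another member of the oxysterol-binding protein family, from 49.9 ± 0.915 to 9.71 ± 1.83 CPM (n = 3 each, SD), at -2.36 (adjusted p = 0.000207), and Insig1, which binds 25-hydroxycholesterol and holds back SREBP processing, from 150 ± 19.3 to 51.0 ± 10.5 CPM (n = 3 each, SD), at -1.56 (adjusted p = 7.01e-07). For Insig1 the change with defactinib differed between the genotypes, with an interaction of -1.71 (adjusted p = 1.54e-05), which was -1.87 without IRF5 KO LPS DMSO replicate 3 and -1.41 without replicates 1 and 2. Npc2, a lysosomal cholesterol carrier, and Osbpl8 were the most abundant per kb, with Npc2 at 266 CPM per kb over all libraries.

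Of 8 tested LXR targets none was called with LPS in WT by edgeR, limma-voom or DESeq2, with 4 at an unadjusted p below 0.05. With defactinib in LPS-stimulated WT none was called higher and 2 lower, near the background of 18.6%, and the median was -0.64. The lower genes were Arl4c, a small GTPase of the ARF family, at -1.55 (adjusted p = 0.00147), and Mylip, the ligase that degrades the LDL receptor, at -1.39 (adjusted p = 4.88e-06). The most abundant per kb were the cholesterol transporter Abcg1, at 272 ± 17.1 CPM (n = 3, SD) in unstimulated WT, 171 ± 14.97 CPM (n = 3, SD) after LPS and 126 ± 57.3 CPM (n = 3, SD) with defactinib, and Apoe, an apolipoprotein that carries cholesterol out of macrophages.

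The SREBP2 programme of cholesterol synthesis, with 20 tested genes, had none called higher and 3 lower with LPS in WT cells (background 9.71% lower), and a median of -0.51. Library size alone as scaling gave 8 lower genes. Lss, which closes the sterol ring, fell from 71.8 ± 0.938 to 26.5 ± 2.67 CPM (n = 3 each, SD), at -1.44 (adjusted p = 4.76e-06), and Mvd, an enzyme of the mevalonate pathway, from 86.4 ± 1.23 to 33.1 ± 3.60 CPM (n = 3 each, SD), at -1.39 (adjusted p = 6.85e-07). Defactinib in LPS-stimulated WT lowered 7 and raised 1 (background 18.6% and 10.4%), with a median of -0.76. Here Hmgcs1, which makes the precursor of mevalonate, fell from 223 ± 26.5 to 22.7 ± 3.49 CPM (n = 3 each, SD), at -3.30 (adjusted p = 6.55e-07), and Fdft1, squalene synthase, from 174 ± 13.2 to 37.6 ± 8.11 CPM (n = 3 each, SD), at -2.21 (adjusted p = 2.09e-08). LPS with defactinib against unstimulated lowered 12 of the 20 in WT (median -1.26) and 2 in IRF5 KO cells (median -0.37). In these comparisons 24.9% and 24% of all genes were called in either direction, and the shares called lower were not counted. The interaction of genotype with defactinib, with 22.8% of all genes called, was called for 7 of them, 1 higher and 6 lower in WT. Leaving replicate 3 out of the IRF5 KO LPS DMSO group gave 0 higher and 8 lower (31.6% of all genes), against 2 higher and 5 lower without replicates 1 and 2 (19.1%). For Hmgcs1 it was -3.23 (adjusted p = 2.52e-05), and -3.90 and -2.39 in these alternatives. For Fdft1 it was -2.17 (adjusted p = 1.43e-06), and -2.33 and -1.86. Srebf2, which encodes the regulator itself, was among the most abundant per kb.

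Among 22 tested G protein-coupled receptors of immune cells related to EBI2, LPS in WT raised 4 and lowered 5, and defactinib in LPS-stimulated WT raised 2 and lowered 14 (8 lower when the fold threshold was placed inside the test), with medians of -0.35 and -1.58, against a background of 11.6% higher and 9.71% lower for LPS and 10.4% higher and 18.6% lower for defactinib. Ccr7, which guides dendritic cells to lymph nodes, rose from 36.0 ± 5.04 to 311 ± 52.1 CPM (n = 3 each, SD) with LPS, at 3.11 (adjusted p = 0.000112), and was at 23.2 ± 21.2 CPM (n = 3, SD) with defactinib, at -3.74 (adjusted p = 2.34e-05). Ptafr, the receptor of platelet-activating factor and also among the most abundant per kb, averaged 203 ± 12.5 CPM (n = 3, SD) in WT LPS DMSO and 26.9 ± 9.12 CPM (n = 3, SD) in WT LPS defactinib, but 435 ± 7.46 CPM (n = 3, SD) in IRF5 KO LPS defactinib. S1pr1, a receptor of sphingosine 1-phosphate, had 31 counts over the unstimulated WT libraries and 2 after LPS. Gpr174, another lymphocyte receptor, had 1 count over WT LPS DMSO and 38 over WT LPS defactinib, and like Cyp7a1 it was counted mostly in libraries with high Gm26917, whose part in these counts was not tested. Gpr174 too passed the filter on low counts only through the groups where it was counted, so its call among those raised is no support. In IRF5 KO cells defactinib changed none of the 22 by edgeR or limma-voom and 1 by DESeq2, with 3 at an unadjusted p below 0.05, in a comparison with 0.919% of all genes called. This rested on the IRF5 KO LPS DMSO libraries: 1 was called higher and 0 lower without replicate 3 (1.45% of all genes called), and 1 higher and 11 lower without replicates 1 and 2 (19.2%).

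**Figure D4:**
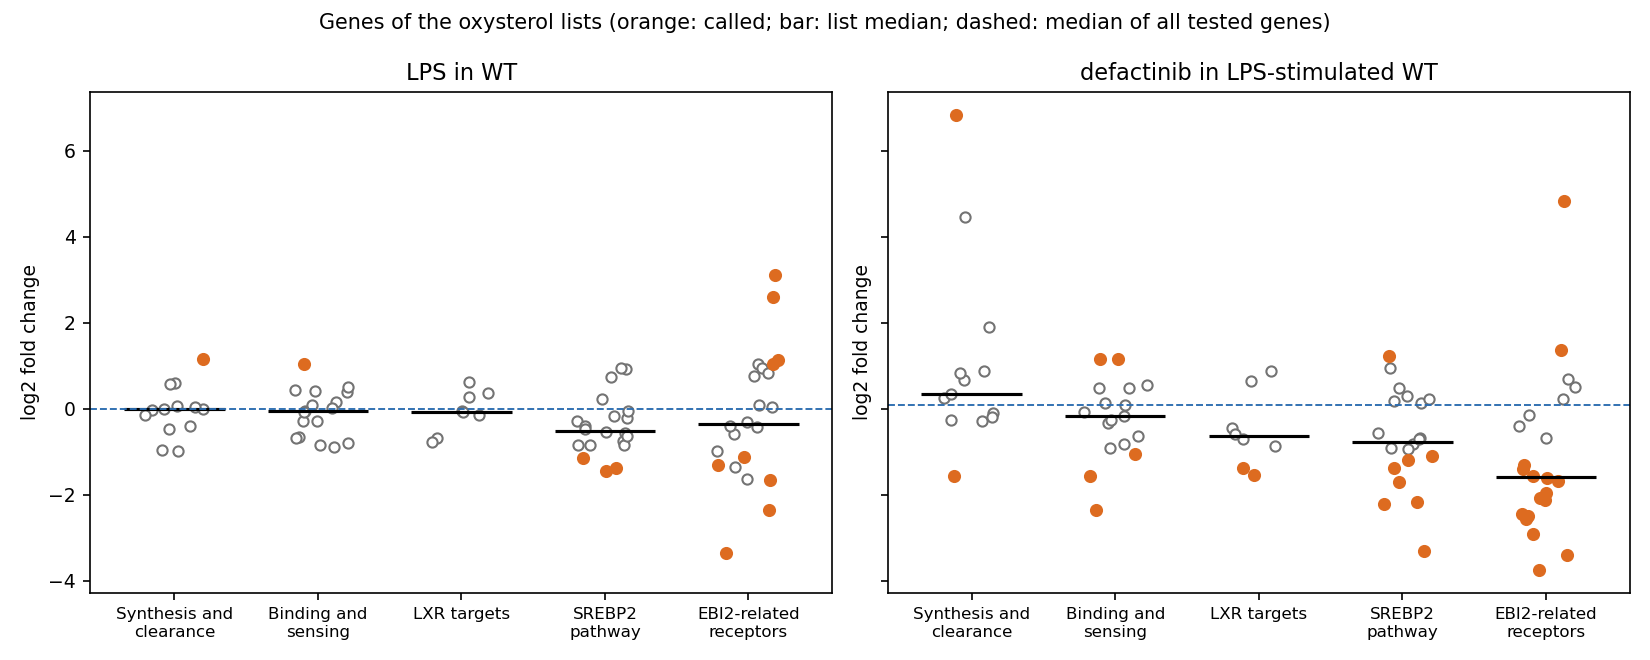
Log2 fold changes of the tested genes of 5 oxysterol lists for LPS in WT and for defactinib in LPS-stimulated WT. Points are genes, orange points were called, bars are list medians and the dashed line is the median of all tested genes. In the EBI2-related receptors 14 of 22 genes were called lower with defactinib (8 with the fold threshold inside the test), and the list medians ran from -1.58 to 0.36.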

How the data were processed

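RNA-seq of 18 libraries in 6 groups was used. The authors aligned reads to mm10 with STAR and counted uniquely mapped, reverse-stranded read pairs over exons per Ensembl gene with featureCounts 1.6.3, and deposited raw counts without normalization for 50600 genes; the annotation release is not given in the sources used here. Column headers were matched to the labels by name.

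Genes that passed filterByExpr over the 6 groups (15663) were fitted with edgeR 4.0.16 (R 4.3.3): TMM normalisation, a robust quasi-likelihood fit with a mean per group and all 18 libraries, and a two-sided F test with Benjamini-Hochberg adjustment over all tested genes. A call needed an adjusted p under 0.05 and more than a 2-fold change, as in the study, which used DESeq2. The script was tested on simulated data. Standard errors are the log2 fold change divided by the square root of F. CPM per kb uses the deposited exon length. The members and lists were chosen with earlier results of these data known. Genes are named by rule: members, Irf5, the 3 genes most like each tested member, neighbours, and for each list the 2 most abundant per kb and the 2 with the largest called change for LPS and for defactinib in WT; Gata2, Kit, Il6 and marker genes were named beside a value. A gene that the rule names is not reported here. Replicate numbers were not taken as pairs. Symbols were matched for 50376 Ensembl IDs. Promoter windows were from RefSeq (GRCm38.p6), and coordinates from the deposited table. Precision is limited by counts for Hsd3b7 and Cyp7b1.

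Alternatives were other scalings (DESeq2 size factors, library size alone), filters (none, or 5 CPM in 3 libraries), DESeq2 1.42.0, limma-voom (limma 3.58.1), a replicate block, only the groups compared, no fold threshold, glmTreat, and each library left out. Leaving out IRF5 KO LPS DMSO replicates 1 and 2 together, and list counts without these libraries, were added after seeing the data.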

Additional observations from a re-analysis of the deposited data

How the results depend on the processing

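The number of members called moved with the processing. With LPS in WT (2) it was 1 with no filter, 1 with the filter of 5 CPM, under which Hsd3b7 was not tested, 0 with glmTreat and 0 to 2 with 1 library left out. With LPS in IRF5 KO (1) it was 0 with the filter of 5 CPM, only the groups compared or glmTreat and 0 to 2 with 1 library left out. For LPS with defactinib it went from 1 to 0 with the filter of 5 CPM and to 2 with only the groups compared in both genotypes, to 2 with limma-voom in WT, and was 1 to 2 with 1 library left out. Between the unstimulated genotypes (1) it was 2 with only the groups compared, 0 with glmTreat and 0 to 2 with 1 library left out. After LPS with DMSO (1) it was 2 with limma-voom, 0 with only the groups compared and 1 to 2 with 1 library left out, and after LPS with defactinib (0) it was 2 with only the groups compared and 0 to 2. With defactinib in WT (1) it was 2 with only the groups compared and 1 to 2 with 1 library left out, and in IRF5 KO cells (0) it was 0 to 2. Both interactions (0) had 1 with limma-voom and 0 to 2 with 1 library left out. Without IRF5 KO LPS DMSO replicates 1 and 2 together, 2 members were called in LPS with defactinib in either genotype, between the genotypes unstimulated and after LPS with defactinib, and with defactinib in either genotype, and 1 in the interaction with defactinib. The shares of all genes called were then 25.7% in WT and 24.6% in IRF5 KO cells for LPS with defactinib, 8.17% and 19.7% between the genotypes, 30.2% and 19.2% for defactinib, and 19.1% for the interaction.

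Directions turned in these cases, where the cause was not tested. Ch25h with LPS in IRF5 KO was -1.16 with limma-voom and -3.29 to 1.39 with 1 library left out, and with defactinib in IRF5 KO -3.17 to 1.49. Hsd3b7 with defactinib in IRF5 KO was -2.23 to 0.57, its interaction with LPS -0.0225 to 2.77, and its interaction with defactinib -0.39 with limma-voom and -1.63 to 1.18. Without IRF5 KO LPS DMSO replicates 1 and 2 together, Hsd3b7 between the genotypes after LPS was -0.32 and its interaction with LPS -0.81. Gpr183 for LPS with defactinib in IRF5 KO was -0.17 with library size alone. Of the counts of list genes called, 540 were within 1.5 times of those reported, 43 above and 37 below; the 14 receptors lower with defactinib in WT became 8 with glmTreat. DESeq2 gave no adjusted p for Ch25h.

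Deviations of same-numbered libraries were correlated at a median r of 0.005 (45 pairs, 4 over 0.1), so numbers were not read as pairs. With the replicate block Ch25h changed by 3.21 with LPS in WT and Gpr183 by -1.25 between the unstimulated genotypes, and the count of members called was the same in all 11 comparisons.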
